A study of Mus musculus with 16 samples.

Results

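Fatty acid oxidation and ketogenesis genes were followed in the livers of mice given an ethanol or a control diet with or without iodomethylcholine (IMC). The set was a named list of 36 genes, taken by gene symbol from 24082 genes in the table, and each of the 36 was found there. They were sorted by where their product is known to act: 19 in mitochondria, 10 in peroxisomes and 7 in both or elsewhere. All 36 were among the 12535 genes with enough reads to test.

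Fatty acids are activated to acyl-CoA, carried into mitochondria as carnitine esters by CPT1, a translocase and CPT2, and shortened there through a spiral of dehydrogenation, hydration, dehydrogenation and thiolysis. Electrons from the first step pass through the electron transfer flavoprotein to the respiratory chain, and the acetyl-CoA that is formed feeds the citric acid cycle or, in the liver, ketone body synthesis. Very long chains start in peroxisomes, which have their own spiral, and many genes of both routes are known targets of PPARα, the nuclear receptor encoded by Ppara. Ethanol oxidation in the liver is known to change the redox state in which these reactions run.

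Liver RNA came from 16 female C57Bl6/J mice, 4 in each of 4 groups, labelled as separate samples, so p-values measure the spread between them. The study recorded diet intake by cage. The sample labels used here do not give the cage of a mouse, so sharing of a cage could not be taken into account. No genetic change is given for any group. Pair control mice received vehicle in a high-fat liquid diet in which maltose dextrin replaced ethanol calorie for calorie, Pair IMC mice received the same diet with IMC, EtOH control mice received the ethanol diet with vehicle, and EtOH IMC mice received the ethanol diet with IMC. IMC is a small molecule that inhibits the choline trimethylamine (TMA) lyase of gut bacteria, and it was mixed into the diet at 0.06% wt/wt. In the chronic feeding model ethanol was raised stepwise to 6% vol/vol over 25 days, and mice were 9 to 11 weeks old. The sample labels give chronic feeding but neither days nor doses, which come from the study's methods. The study asked how the inhibitor changes the liver during ethanol feeding. It reported lower food intake and body weight in mice given IMC together with ethanol. A legend of the study also marks a body weight difference between pair-fed mice with and without IMC. In the EtOH IMC mice, IMC and lower intake therefore cannot be told apart. In the Pair IMC mice, IMC and the difference in weight cannot be told apart either, and the average over diets holds both. Diet intake and body weight were not analysed here.

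Between 9632659 and 12601199 reads per library fell on genes. Levels are the deposited normalized counts after all 16 libraries were put on 1 scale, and the values of a group are listed in order of library number (Pair control 10, 12, 14 and 16, Pair IMC 2, 4, 6 and 8, EtOH control 1, 3, 5 and 7, EtOH IMC 9, 11, 13 and 15). The numbers 1 to 8 thus belong to the Pair IMC and EtOH control mice and 9 to 16 to the remaining mice, so that within a diet the IMC effect cannot be told apart from any difference between low and high library numbers. The same holds for each ethanol effect and for the difference of the IMC effect between diets, whereas averaging the IMC effect over diets balances low and high numbers. Summed markers of striated muscle reached 1267 in library 11 of EtOH IMC against at most 18.0 in any other library, and bile duct markers 1395 in library 12 of Pair control against at most 947 elsewhere. The 10 hepatocyte markers were all read, and their sum was 1349280 to 2045020 in Pair control mice, 1883760 to 2042440 in Pair IMC mice, 1218630 to 1371680 in EtOH control mice and 1123230 to 1484870 in EtOH IMC mice, so that it was lower with ethanol under IMC without overlap. The 7 stellate cell markers summed to 2995 to 4242, 3049.5 to 3825, 4373 to 5214 and 2785 to 3750 in the same order. Of these, 3 were called lower with IMC under ethanol (11.1% of all genes) and 3 lower with IMC averaged over both diets (14.03%). The IMC effect differed between diets for 2, which were lower under ethanol (0.79% of all genes). Ethanol in control mice raised 3 (6.33% of all genes), and 5 on the deposited values (22.3%). In IMC-treated mice ethanol raised 2 and lowered 1 (7.88% and 8.61% of all genes). On the deposited values these were 3 and 1 (25.4% and 3.52%). Adipocyte markers summed to at most 38.1 in any library. The 6 pericentral markers summed to between 89532 and 115225 in Pair control mice, 70613 and 90139 in Pair IMC mice, 72148 and 92488 in EtOH control mice, and 45836 and 70542 in EtOH IMC mice. The 6 periportal markers summed to between 90088 and 110707, 119717 and 134865, 94701 and 120478, and 111098 and 154928 in the same order of groups. The part of hepatocyte content, stellate cells, muscle RNA, bile duct RNA or lobular zonation in the results was not tested. In bulk liver, the summed hepatocyte markers cannot tell apart fewer hepatocytes, less RNA per hepatocyte and a change in Alb alone.

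The promoter stretches that most resemble the element bound by PPARα with its partner RXR are shown for the members that hold it, because PPARα is the regulator that the set is known for. The element was searched as AGGTCA repeated after 1 base, on both strands, with at most 2 mismatches, in the 250 bases before each RefSeq gene start (GRCm38.p6). It was found in 3 of the 31 members that have a promoter entry (Acot12, Acot4 and Etfa) and in 3.72% of 27025 genes with an entry. Each is printed 5′ to 3′ on the strand of its gene, and capitals mark the match, which lies on the opposite strand in all 3.
Acot12, chr13:91741391-91741443, plus strand, 1 mismatch: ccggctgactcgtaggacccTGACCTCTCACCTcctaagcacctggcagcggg
Acot4, chr12:84038346-84038378, plus strand, 2 mismatches: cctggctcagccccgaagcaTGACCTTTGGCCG
Etfa, chr9:55512288-55512340, minus strand, 2 mismatches: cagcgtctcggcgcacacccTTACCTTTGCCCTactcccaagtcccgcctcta
The match ended 98 bases before the start of Acot12, 1 base before that of Acot4 and 65 bases before that of Etfa. Ppara, Ehhadh, Pex11a, Cpt1a and Acaa1a held no match in these windows, which leave out distal sites and introns. Some members are neighbours in GENCODE vM21 on GRCm38. Acot2 (chr12:83987861-83993873), Acot1 (chr12:84009490-84018371), Acot4 (chr12:84038379-84048601) and Acot3 (chr12:84052144-84060402) follow each other on the plus strand. Hadha (chr5:30118304-30155162, minus strand) and Hadhb (chr5:30155248-30184593, plus strand), which encode the alpha and beta subunits of the mitochondrial trifunctional protein, start beside each other and run apart.

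Differences were tested with limma across all 12535 genes, and a gene was called when its p-value, adjusted by the Benjamini-Hochberg method, was under 0.05. In pair-fed mice IMC raised 2 of the 36 genes and lowered 4, against 4.32% of all genes higher and 5.16% lower. The median change of the 36 was -0.01 on the log2 scale, with 15 above 0 and 21 below. Under ethanol IMC raised 1 and lowered 9, against 10.4% of all genes higher and 11.1% lower, and the median of the 36 was -0.23 against -0.0013 over all genes. Averaged over both diets IMC raised 2 and lowered 11 (all genes 14.1% higher and 14.03% lower), with a median of -0.16. The IMC effect itself differed between diets for 1 member, which was lower under ethanol (all genes 0.319% higher and 0.79% lower). By limma 6 members were lower at an unadjusted p under 0.05 and 0 were higher, and edgeR and DESeq2 each called the same number, 0 higher and 1 lower.

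Ethanol without IMC raised 1 of the 36 and lowered 7, against 6.33% of all genes higher and 5.52% lower, with a median of -0.12. Ethanol in IMC-treated mice raised 0 and lowered 13, against 7.88% of all genes higher and 8.61% lower, with a median of -0.35 and 34 of 36 members below 0. By limma 1 member was higher there at an unadjusted p under 0.05, and edgeR and DESeq2 called 0 higher. Comparisons between diets rest on the common scale. The factors that set it were 0.934 to 0.939 in pair-fed and 1.066 to 1.072 in ethanol-fed libraries. The median over all genes of the deposited values was 0.19 higher on the log2 scale in ethanol-fed libraries. Ethanol falls are therefore smaller, and rises larger, on the deposited values than on the common scale. There ethanol without IMC gave 6 members higher and 2 lower, against 22.3% of all genes higher and 1.59% lower. The median of the 36 was then 0.07 against 0.18 over all genes, with 22 members above 0 and 14 below. Ethanol in IMC-treated mice gave 2 higher and 6 lower on the deposited values, against 25.4% of all genes higher and 3.52% lower, with a median of -0.15 against 0.19 over all genes and 26 members below 0. Of the 8 and 13 calls on the common scale, 3 and 6 were also called on the deposited values, and none changed direction. The calls not made on the deposited values were those of Ppara, Acaa1a, Acot3, Acot4 and Eci2 without IMC, and of Ppara, Acaa1a, Acot12, Decr2, Etfa, Hadh and Hadhb with IMC. The comparisons share groups of mice, so their values are given side by side.

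**Figure D1:**
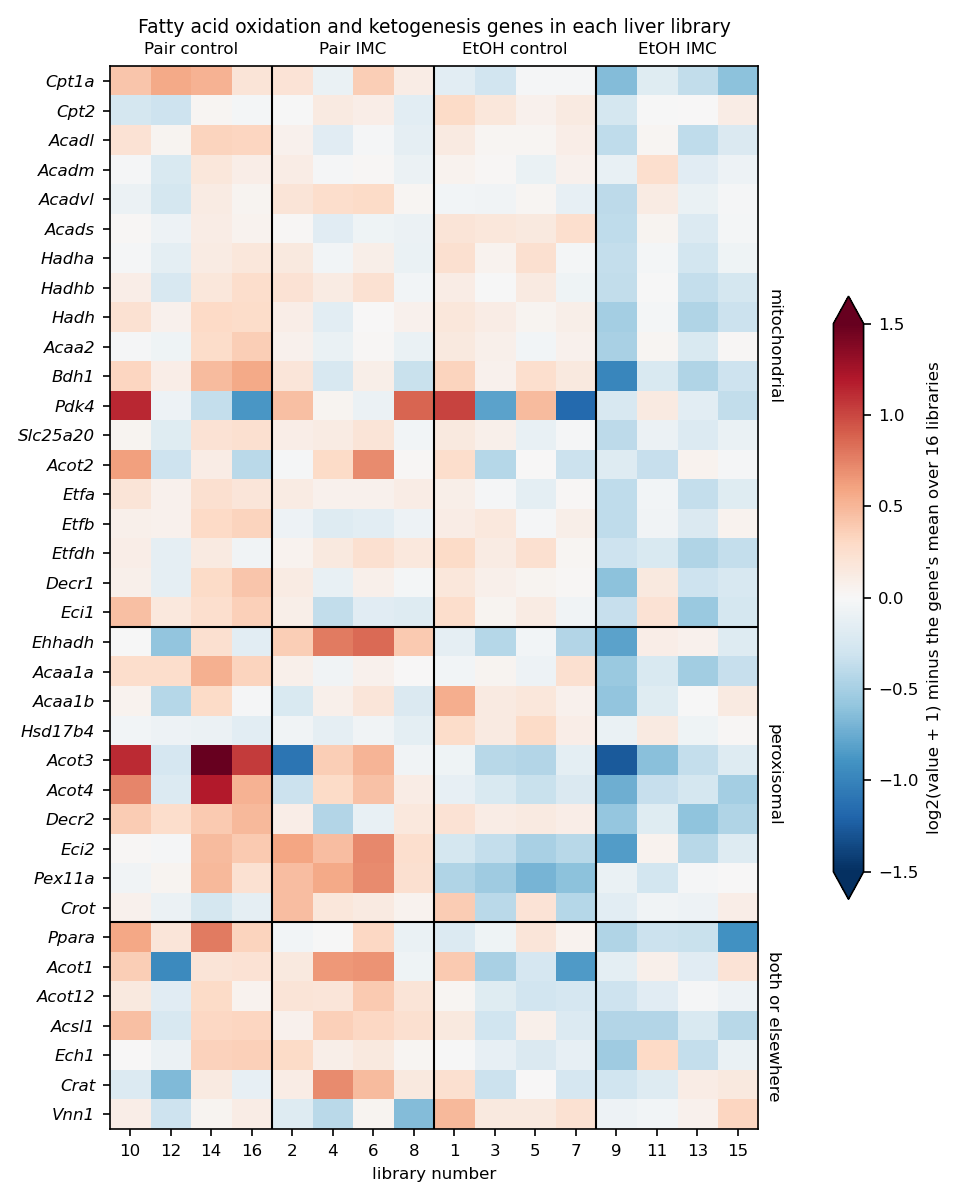
Heat map of the 36 genes (rows, grouped by compartment) in the 16 libraries (columns, grouped by diet and treatment); colour is log2(value + 1) minus the mean of that gene over all 16 libraries. The mitochondrial rows are mostly blue in the 4 EtOH IMC columns, library 12 is the lowest Pair control column for 29 of the 36 genes, and library 9 is the lowest EtOH IMC column for 26 of the 36 genes.

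Single libraries ran high or low across many members. Library 12 held the lowest Pair control value for 29 of 36 genes (23.7% of all genes tested), library 9 the lowest EtOH IMC value for 26 (26.9% of all genes) and library 11 the highest EtOH IMC value for 23 (26.6% of all genes). Library 1 held the highest EtOH control value for 26 genes (24.0% of all genes). Without library 12, IMC in pair-fed mice gave 0 members higher (11 lower and 3 higher at an unadjusted p under 0.05; edgeR and DESeq2, run with all libraries, called 2 higher each) and 9 lower, against 2.99% of all genes higher and 3.82% lower. Without library 4, or without library 6, limma called 0 members in that comparison, with 11 and 13 at an unadjusted p under 0.05, and with all libraries edgeR called 6 and DESeq2 9. Over all genes the share called also fell, from 9.49% to 4.28% without library 4 and 4.33% without library 6. Without library 11, which carries the muscle markers, IMC under ethanol gave 1 higher and 15 lower (all genes 8.08% and 9.49%), and ethanol in IMC-treated mice 18 lower (all genes 9.58%). Leaving out libraries 11 and 12 together gave 9 called members for IMC in pair-fed mice (7.28% of all genes), 16 under ethanol (18.0% of all genes), 10 for ethanol without IMC (10.8%) and 20 for ethanol with IMC (18.1%).

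Ppara, the nuclear receptor that switches on many genes of both oxidation routes, was lower in the EtOH IMC mice than in any other group. Its levels were 1764, 1344, 2039 and 1498 in Pair control mice, 1156, 1179, 1464 and 1105 in Pair IMC mice, 1029.8, 1137, 1346 and 1229 in EtOH control mice and 868, 949, 936 and 631 in EtOH IMC mice. Every EtOH IMC library lay below every library of the other 3 groups, while 1 EtOH control and 1 Pair IMC library reached the lowest Pair control value or above. Under ethanol IMC lowered Ppara by 0.50 ± 0.14 on the log2 scale (limma adjusted p = 0.0199), and over both diets by 0.46 ± 0.10 (limma adjusted p = 0.00261). In pair-fed mice the difference was -0.43 ± 0.14 (limma adjusted p = 0.0659). Ethanol lowered it by 0.48 ± 0.14 without IMC (limma adjusted p = 0.0378) and by 0.54 ± 0.14 with IMC (limma adjusted p = 0.0155). The average over diets held with each library left out, whereas the call under ethanol was lost without library 5, 7 or 15 (limma adjusted p up to 0.0661). The ethanol calls were lost without library 1, 3, 7, 10 or 14 in control mice (up to 0.123) and without library 6 or 15 in IMC-treated mice (up to 0.0567).

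**Figure D2:**
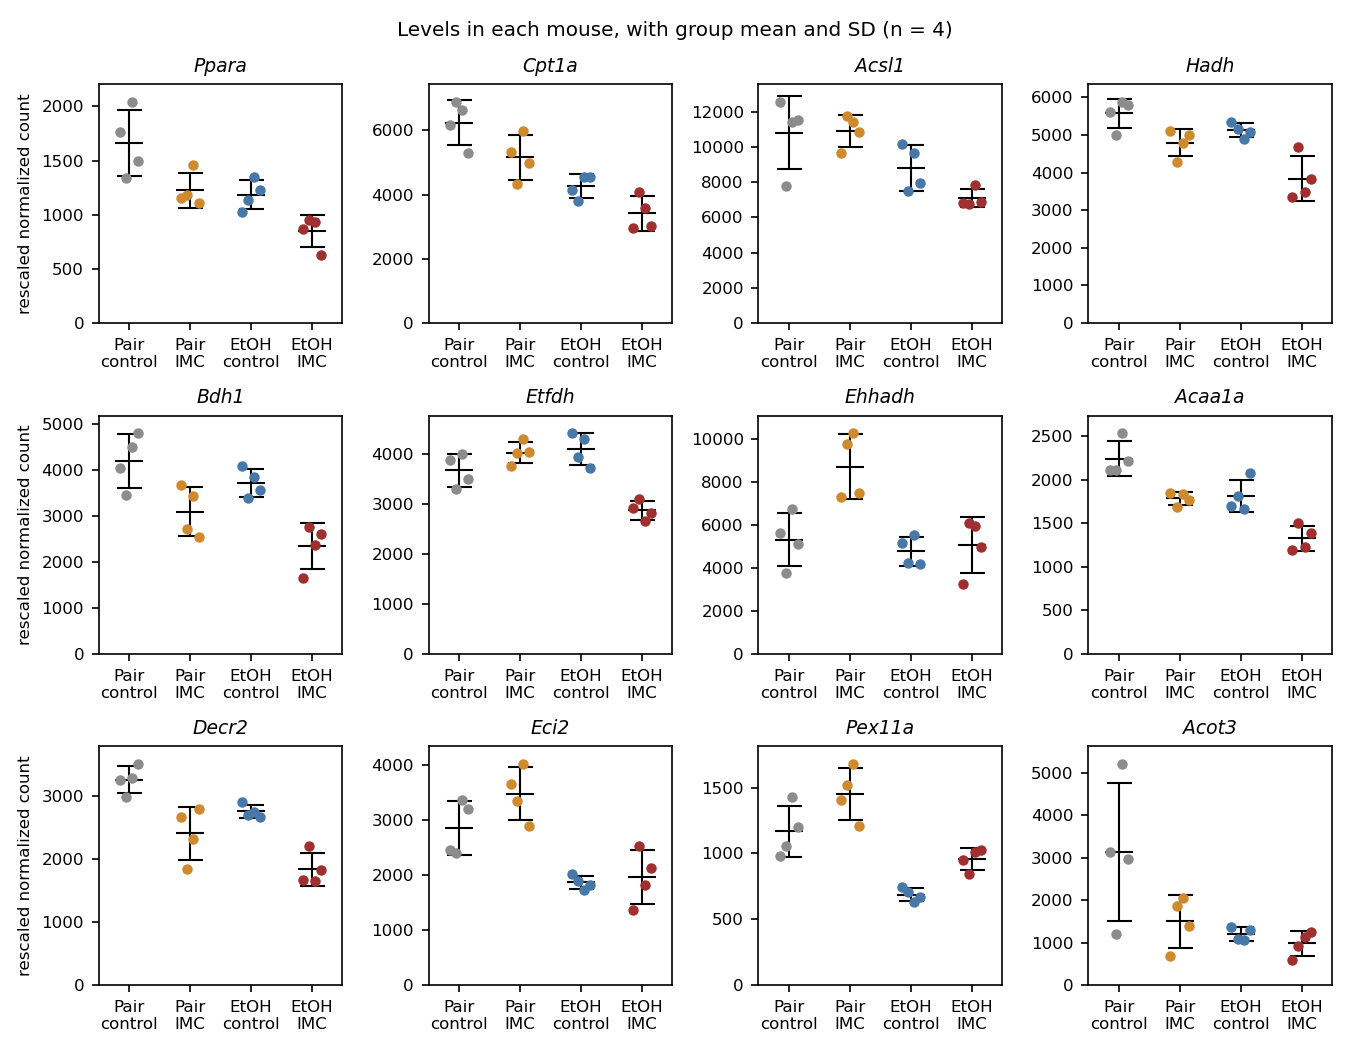
Level of 12 of the genes in each mouse (points, rescaled normalized counts), by group, with bars for the group mean and SD (n = 4 each). Ppara, Cpt1a, Acaa1a, Bdh1 and Decr2 are lowest in EtOH IMC, Etfdh is low in EtOH IMC alone, Ehhadh is highest in Pair IMC, and Pex11a is lowest in EtOH control.

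Among the genes of fatty acid activation and carnitine entry, Cpt1a and Acsl1 were lower with ethanol. Cpt1a encodes the liver form of carnitine palmitoyltransferase 1, the outer membrane enzyme that sets the rate of fatty acid entry. Cpt1a measured 6163, 6876, 6618 and 5279 in Pair control mice, 5328, 4328, 5974 and 4985 in Pair IMC mice, 4154, 3795, 4556 and 4555 in EtOH control mice and 2946, 4089, 3588 and 3028 in EtOH IMC mice. All 8 ethanol-fed libraries lay below all Pair control libraries, and the EtOH IMC libraries lay below all Pair IMC libraries. Ethanol lowered Cpt1a by 0.54 ± 0.12 on the log2 scale without IMC (limma adjusted p = 0.00852) and by 0.60 ± 0.12 with IMC (limma adjusted p = 0.00319), and both calls held with each library left out and on the deposited values. IMC lowered it by 0.30 ± 0.09 over both diets (limma adjusted p = 0.0132), with overlapping groups and no call within either diet. Acsl1, the main long-chain acyl-CoA synthetase of liver, measured 12553, 7786, 11441 and 11525 in Pair control mice, 9664, 11753, 11415 and 10877 in Pair IMC mice, 10156, 7487, 9690.2 and 7958 in EtOH control mice and 6812, 6792, 7869 and 6893 in EtOH IMC mice. All 4 EtOH IMC libraries lay below all 4 Pair IMC libraries. Acsl1 fell by 0.62 ± 0.14 with ethanol in IMC-treated mice (limma adjusted p = 0.00537), a call that held with each library left out and on the deposited values. In control mice the ethanol difference was -0.28 ± 0.14 (limma adjusted p = 0.182). Cpt2, the inner membrane partner of CPT1, ranged over 1230.2 to 1859.5 and Slc25a20, the carnitine-acylcarnitine translocase, over 1004 to 1551, and neither was called in any comparison.

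In the mitochondrial spiral IMC lowered Acadl, Acads, Hadha and Hadh under ethanol. Acads encodes short-chain acyl-CoA dehydrogenase, and its levels were 2019.6, 1897, 2153 and 2075 in Pair control mice, 2023, 1766, 1908 and 1882 in Pair IMC mice, 2283, 2236, 2214 and 2373 in EtOH control mice and 1533, 2056, 1736 and 1949 in EtOH IMC mice. The EtOH IMC libraries lay below all EtOH control libraries. IMC lowered Acads by 0.33 ± 0.08 on the log2 scale under ethanol (limma adjusted p = 0.0101) and by 0.22 ± 0.06 over both diets (limma adjusted p = 0.0116), and both calls held with each library left out. Acadl, the long-chain acyl-CoA dehydrogenase, measured 3531, 3128, 3849 and 3822 in Pair control mice, 3183, 2699.7, 3001 and 2773 in Pair IMC mice, 3361, 3117, 3115 and 3278 in EtOH control mice and 2334, 3124, 2350.1 and 2625 in EtOH IMC mice. Library 11 lay within the range of EtOH control and the other 3 EtOH IMC libraries below it. Acadl fell by 0.31 ± 0.10 with IMC under ethanol (limma adjusted p = 0.0282), lost without library 1, 7, 9 or 13 (up to 0.089). Over both diets it fell by 0.30 ± 0.07 (limma adjusted p = 0.00317), held with each library left out.

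Hadh, the short and medium chain hydroxyacyl-CoA dehydrogenase, showed the largest fall of the mitochondrial spiral genes with IMC under ethanol. Its levels were 5604, 5009.9, 5872 and 5799 in Pair control mice, 5099, 4293, 4778 and 4996 in Pair IMC mice, 5355, 5161, 4902 and 5092 in EtOH control mice and 3356, 4690.4, 3491 and 3826 in EtOH IMC mice. The EtOH IMC libraries lay below all EtOH control and all Pair control libraries, while library 11 reached into the range of Pair IMC. IMC lowered Hadh by 0.43 ± 0.10 on the log2 scale under ethanol (limma adjusted p = 0.00523) and by 0.32 ± 0.07 over both diets (limma adjusted p = 0.00235), both held with each library left out. Ethanol in IMC-treated mice lowered Hadh by 0.33 ± 0.10 (limma adjusted p = 0.0297), lost without library 2, 6, 8, 9, 13 or 15 (up to 0.0904).

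The paired subunits of the trifunctional protein, which runs the last steps of the spiral for long chains, were each called in 1 comparison. Hadha measured 4136, 3775, 4547 and 4730.0 in Pair control mice, 4657, 4063, 4441 and 3917 in Pair IMC mice, 4969, 4334, 4969 and 4111 in EtOH control mice and 3269, 4090.4, 3459 and 4017 in EtOH IMC mice. EtOH IMC lay just below EtOH control without overlap, and IMC lowered Hadha there by 0.31 ± 0.10 (limma adjusted p = 0.0348), a call lost without library 1, 5, 9 or 13 (up to 0.1). Hadhb measured 2322, 1839, 2451 and 2599 in Pair control mice, 2529.7, 2364, 2538 and 2103 in Pair IMC mice, 2346, 2161, 2384 and 2074 in EtOH control mice and 1686, 2158, 1699 and 1813 in EtOH IMC mice. Its EtOH IMC libraries lay below Pair IMC except for library 11, and ethanol in IMC-treated mice lowered it by 0.38 ± 0.11 (limma adjusted p = 0.0233), lost without library 2, 6, 9, 13 or 15 (up to 0.069). Of the 100-base windows of Hadhb, 14.8% also occur in the pseudogenes Gm13910 and Gm9108. Acadm, Acadvl and Acaa2, which encode the medium and very long chain dehydrogenases and the thiolase, were called in no comparison. Their levels ranged over 4072 to 5682, 2012 to 3214 and 6128 to 11099.5. Acaa2 had the highest level per exon length of all 36 genes, 5708 per kb, and 42.9% of the Acadvl exons overlap Dvl2 on the opposite strand.

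Bdh1, which converts acetoacetate to the ketone body 3-hydroxybutyrate, had the largest fall with IMC under ethanol. The levels of Bdh1 were 4049, 3459, 4499 and 4802 in Pair control mice, 3664, 2727, 3439.7 and 2554 in Pair IMC mice, 4078, 3385, 3847 and 3575 in EtOH control mice and 1645, 2760.0, 2363 and 2612 in EtOH IMC mice. All EtOH IMC libraries lay below all EtOH control libraries, and library 9 was the lowest of all 16. Bdh1 fell by 0.69 ± 0.15 on the log2 scale with IMC under ethanol, a change of -38% (limma adjusted p = 0.00413). Over both diets it fell by 0.57 ± 0.11 (limma adjusted p = 0.000886), and both calls held with each library left out. In pair-fed mice the difference was -0.45 ± 0.15 (limma adjusted p = 0.0709), with a call gained without library 9, without library 12 and by DESeq2 with all libraries. Pdk4, the kinase that shuts pyruvate out of the citric acid cycle in fasting, had the largest SD relative to its mean of all members in Pair control and EtOH control. It ran from 108 to 437 in Pair control and from 87.8 to 404 in EtOH control, and was not called.

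The electron transfer genes carried the 1 difference between diets. Etfdh encodes the dehydrogenase that passes electrons from the flavoprotein to ubiquinone, and its levels were 3879.8, 3295, 3985 and 3493 in Pair control mice, 3761, 4007, 4284 and 4022 in Pair IMC mice, 4407, 3939, 4282 and 3705 in EtOH control mice and 2913, 3089.6, 2648 and 2818 in EtOH IMC mice. The 4 EtOH IMC libraries lay below all 12 others, and the other 3 groups overlapped. IMC lowered Etfdh by 0.51 ± 0.08 on the log2 scale under ethanol (limma adjusted p = 0.000501), and in pair-fed mice the difference was 0.14 ± 0.08 (limma adjusted p = 0.328). The effect under ethanol was lower than that in pair-fed mice by 0.65 ± 0.12 (limma adjusted p = 0.0133), and this held with each library left out (up to 0.0388) and under every other setting tried. Ethanol in IMC-treated mice lowered it by 0.49 ± 0.08 (limma adjusted p = 0.00104), held with each library left out and on the deposited values. The average over diets, -0.19 ± 0.06 (limma adjusted p = 0.0252), joins unlike effects and was lost without library 1, 2, 10, 13 or 14 (up to 0.0572).

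Etfa and Etfb encode the alpha and beta subunits of the electron transfer flavoprotein. Etfa measured 4452, 4064, 4606 and 4397 in Pair control mice, 4229, 4053, 4075 and 4192 in Pair IMC mice, 4120.0, 3826, 3501 and 3919 in EtOH control mice and 2976, 3783, 3028 and 3430.2 in EtOH IMC mice. Its EtOH IMC libraries lay below all Pair IMC libraries. Ethanol in IMC-treated mice lowered Etfa by 0.33 ± 0.08 (limma adjusted p = 0.0124). This call held with each library left out but was not made on the deposited values. Etfb measured 2958, 2942, 3450.0 and 3545 in Pair control mice, 2668, 2462, 2522 and 2677 in Pair IMC mice, 3045, 3138, 2771 and 2999.9 in EtOH control mice and 2162, 2707, 2428 and 2913 in EtOH IMC mice. Every Pair IMC library lay below every Pair control library. IMC lowered Etfb by 0.32 ± 0.09 in pair-fed mice (limma adjusted p = 0.0401), lost without library 1, 2, 4, 6, 7, 14 or 16 (up to 0.11). Over both diets Etfb fell by 0.28 ± 0.07 (limma adjusted p = 0.00475), held with each library left out. Etfb values are uncertain, since 58.3% of its exons overlap Gm45233 or Mir7051 on the same strand and 35.8% of its 100-base windows also occur in Gm45233.

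The auxiliary enzymes that handle double bonds were lower with IMC in Decr2 and Eci1. Decr2 encodes the peroxisomal 2,4-dienoyl-CoA reductase, and its levels were 3252, 2987, 3279 and 3499.9 in Pair control mice, 2670.0, 1843, 2307 and 2787 in Pair IMC mice, 2901, 2701, 2735 and 2664 in EtOH control mice and 1666, 2206, 1644 and 1829 in EtOH IMC mice. In both diets the IMC libraries lay below all control libraries, and the groups did not overlap. Decr2 fell with IMC by 0.45 ± 0.12 on the log2 scale in pair-fed mice (limma adjusted p = 0.0214) and by 0.59 ± 0.12 under ethanol (limma adjusted p = 0.00191). Over both diets the fall was 0.52 ± 0.08 or -30.4% (limma adjusted p = 0.000202). The calls under ethanol and over both diets held with each library left out, and the call in pair-fed mice was lost without library 4 or 6 (up to 0.0732). Ethanol in IMC-treated mice lowered Decr2 by 0.38 ± 0.12 (limma adjusted p = 0.0326), with overlap and lost without library 2, 6, 8, 9, 13 or 15 (up to 0.105).

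Eci1, the mitochondrial enoyl-CoA isomerase, measured 1393, 1137, 1212 and 1300.4 in Pair control mice, 1081, 785, 905 and 889 in Pair IMC mice, 1215, 1044, 1105 and 977 in EtOH control mice and 800.4, 1182, 691 and 844 in EtOH IMC mice. Pair IMC lay below Pair control without overlap, and library 11 lay inside the EtOH control range. IMC lowered Eci1 by 0.47 ± 0.13 in pair-fed mice (limma adjusted p = 0.0362), lost without library 4, 6, 8, 10, 14 or 16 (up to 0.118). Over both diets it fell by 0.40 ± 0.09 (limma adjusted p = 0.00479), held with each library left out. Eci2, listed here as the peroxisomal isomerase, was called in both ethanol comparisons. Its levels were 2452, 2405, 3366 and 3195 in Pair control mice, 3660.3, 3336, 4012 and 2892 in Pair IMC mice, 2013, 1893, 1732 and 1819 in EtOH control mice and 1359.9, 2524, 1814 and 2122 in EtOH IMC mice. The EtOH control libraries lay below all Pair control libraries and the EtOH IMC libraries below all Pair IMC libraries. Ethanol lowered Eci2 by 0.60 ± 0.16 in control mice (limma adjusted p = 0.0207) and by 0.86 ± 0.16 in IMC-treated mice (limma adjusted p = 0.0017). The first was lost without library 5, 14 or 16 (up to 0.0659), and the second held with each library left out and on the deposited values. Decr1 and Ech1, the mitochondrial dienoyl-CoA reductase and an isomerase of both organelles, were not called and ranged over 1655 to 3388 and 2617 to 4857.

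**Figure D3:**
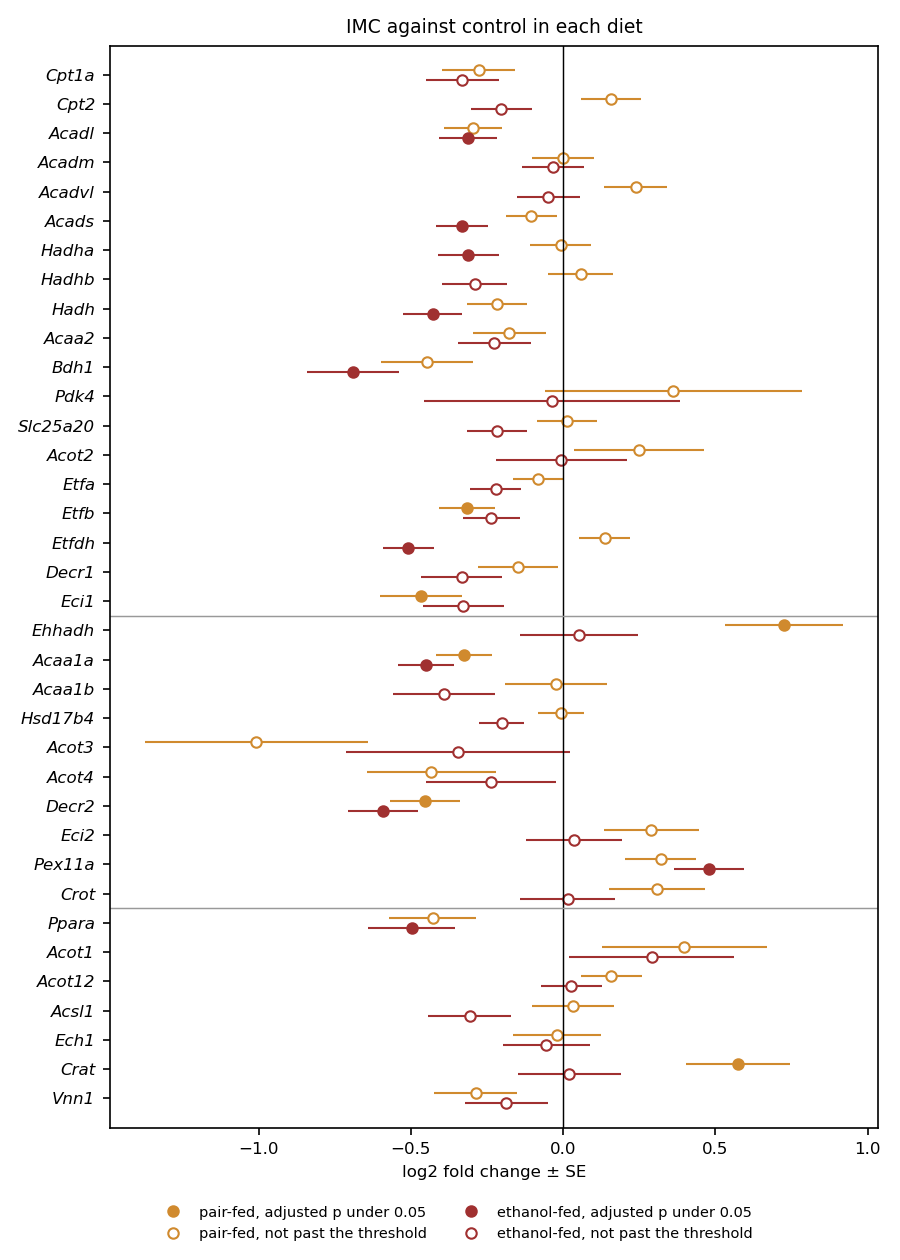
Log2 fold change with its SE for IMC against control in pair-fed (orange) and ethanol-fed (red) mice for each of the 36 genes; filled points have an adjusted p under 0.05 and lines part mitochondrial, peroxisomal and other genes. The mitochondrial points of ethanol-fed mice all lie below 0 (19 of 19), while those of pair-fed mice lie on both sides (7 above and 12 below).

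Among the peroxisomal spiral genes, IMC in pair-fed mice raised Ehhadh and lowered Acaa1a. Ehhadh encodes the bifunctional enzyme of the spiral, and its levels were 5642, 3784, 6713 and 5105 in Pair control mice, 7311, 9732, 10255 and 7487 in Pair IMC mice, 5169, 4230.0, 5523 and 4180.1 in EtOH control mice and 3247, 6067, 5961 and 4981 in EtOH IMC mice. Pair IMC stood above the other 3 groups without overlap. IMC raised Ehhadh by 0.73 ± 0.19 on the log2 scale in pair-fed mice, 65.3% (limma adjusted p = 0.0261), but this was lost without library 4, 6 or 12 (up to 0.0869). Under ethanol the IMC difference was 0.05 ± 0.19 (limma adjusted p = 0.874), and the difference between diets, -0.67 ± 0.27, did not pass the test (limma adjusted p = 0.249). The average over diets was 0.39 ± 0.14 (limma adjusted p = 0.0423), lost without library 3, 4, 6, 7, 11, 12, 13, 15 or 16 (up to 0.0884). Ethanol in IMC-treated mice lowered Ehhadh by 0.81 ± 0.19 (limma adjusted p = 0.00998), held with each library left out and on the deposited values.

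Acaa1a, a peroxisomal thiolase, was lower with IMC in both diets and with ethanol in both treatments. It measured 2111, 2115, 2534 and 2212 in Pair control mice, 1852, 1690.4, 1834 and 1770.0 in Pair IMC mice, 1701, 1807, 1661 and 2072 in EtOH control mice and 1189, 1502, 1228 and 1385 in EtOH IMC mice. Pair IMC lay below Pair control and EtOH IMC below EtOH control and Pair IMC, all without overlap. IMC lowered it by 0.32 ± 0.09 in pair-fed mice (limma adjusted p = 0.0328), by 0.45 ± 0.09 under ethanol (limma adjusted p = 0.00246) and by 0.39 ± 0.06 over both diets (limma adjusted p = 0.000324). Ethanol lowered it by 0.31 ± 0.09 without IMC (limma adjusted p = 0.0351) and by 0.44 ± 0.09 with IMC (limma adjusted p = 0.00413). The call in pair-fed mice was lost without library 2, 4, 6, 14 or 16 (up to 0.098) and the ethanol call in control mice without library 1, 3, 5, 14 or 16 (up to 0.112), and the other 3 held with each library left out. Neither ethanol call of Acaa1a was made on the deposited values. Its paralog Acaa1b was not called and ranged over 4876 to 10742. Of the 100-base windows, 7.21% of Acaa1a and 19.3% of Acaa1b occur in the other gene, so reads may be split between them. Hsd17b4, the D-bifunctional protein, measured 4562, 4465, 4422 and 4222 in Pair control mice, 4524, 4277, 4553 and 4245 in Pair IMC mice, 5675, 5148, 5766 and 5024 in EtOH control mice and 4381, 5153, 4507 and 4754 in EtOH IMC mice. Every EtOH control library lay above every Pair control library, and ethanol raised Hsd17b4 by 0.29 ± 0.07 (limma adjusted p = 0.0198). This was lost without library 1 or 5 (up to 0.0667) and was also called on the deposited values.

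Pex11a, a peroxisomal membrane protein known for its part in peroxisome division, rose with IMC and fell with ethanol. The levels of Pex11a were 983, 1055, 1427 and 1202 in Pair control mice, 1403, 1519.9, 1677 and 1209 in Pair IMC mice, 745, 704, 629 and 668 in EtOH control mice and 952, 841, 1013 and 1027 in EtOH IMC mice. EtOH control was the lowest group with no overlap with any other, and EtOH IMC lay above it and below Pair IMC. IMC raised Pex11a by 0.48 ± 0.12 on the log2 scale under ethanol, 39.3% (limma adjusted p = 0.00745), and by 0.40 ± 0.08 over both diets (limma adjusted p = 0.00171). In pair-fed mice the difference was 0.32 ± 0.12 (limma adjusted p = 0.0886). Ethanol lowered it by 0.75 ± 0.12 without IMC (limma adjusted p = 0.000974) and by 0.59 ± 0.12 with IMC (limma adjusted p = 0.00254). The 4 calls held with each library left out, and both ethanol calls were also made on the deposited values.

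Acyl-CoA thioesterases, which split acyl-CoA to free fatty acid and CoA, were called in the ethanol comparisons for Acot3, Acot4 and Acot12. Acot3 measured 3143, 1211, 5210.2 and 2983 in Pair control mice, 677, 1869, 2062 and 1388 in Pair IMC mice, 1375, 1081, 1066 and 1305 in EtOH control mice and 601, 931, 1127 and 1260.3 in EtOH IMC mice, and library 12 was the one Pair control value inside the range of EtOH control. Ethanol in control mice lowered Acot3 by 1.21 ± 0.37 on the log2 scale (limma adjusted p = 0.0398), lost without library 1, 3, 5, 7, 10, 14 or 16 (up to 0.13). Its neighbour Acot4 measured 3804, 1983, 5224 and 3278 in Pair control mice, 1830.2, 2784, 3098 and 2465 in Pair IMC mice, 2102, 1952, 1819 and 1962 in EtOH control mice and 1378, 1802, 1905 and 1606 in EtOH IMC mice, again with library 12 inside the EtOH control range. Acot4 fell by 0.78 ± 0.21 with ethanol in control mice (limma adjusted p = 0.0242), lost without library 5, 7, 10 or 14 (up to 0.0772). Neither was called on the deposited values. Acot12, a cytosolic acetyl-CoA thioesterase, measured 1966, 1584, 2169 and 1847 in Pair control mice, 2027, 2015, 2334 and 2028 in Pair IMC mice, 1806, 1569, 1453 and 1496 in EtOH control mice and 1428, 1574, 1752 and 1683 in EtOH IMC mice. EtOH IMC lay below Pair IMC without overlap, and Acot12 fell by 0.39 ± 0.10 there (limma adjusted p = 0.0145), lost without library 6 (up to 0.0519). Acot1 and Acot2, the cytosolic and mitochondrial members of the cluster, were low (144 to 446 and 81.3 to 179) and not called. Of the 100-base windows, 12.4% of Acot1, 17.1% of Acot2 and 13.8% of Acot3 occur elsewhere, chiefly in each other, in Acot5 or in Gm49366.

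Crat, carnitine acetyltransferase, measured 823, 595, 1035 and 868 in Pair control mice, 1023, 1542, 1310.3 and 1046 in Pair IMC mice, 1118, 757, 949 and 795 in EtOH control mice and 766, 827, 1019 and 1047 in EtOH IMC mice. Pair IMC and Pair control overlapped by 1 library each. IMC raised Crat by 0.57 ± 0.17 on the log2 scale in pair-fed mice (limma adjusted p = 0.0412), lost without library 4, 5, 6, 10, 12 or 16 (up to 0.142), and under ethanol the difference was 0.02 ± 0.17 (limma adjusted p = 0.943). Crot, the peroxisomal carnitine octanoyltransferase, and Vnn1, a pantetheinase that is a known PPARα target, were not called in any comparison and ranged over 7751 to 14346 and 882 to 1947.

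**Figure D4:**
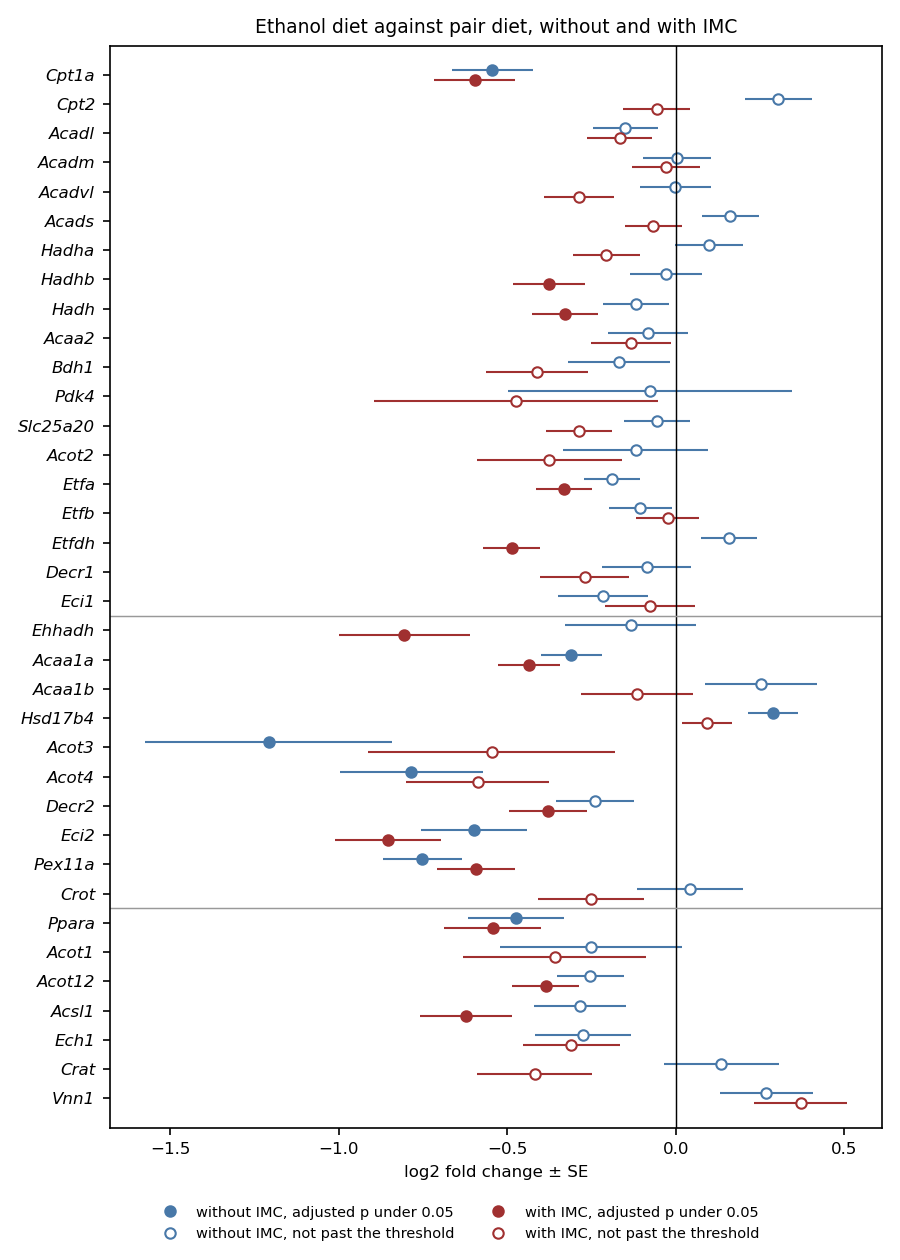
Log2 fold change with its SE for the ethanol diet against the pair diet, without IMC (blue) and with IMC (red), for each of the 36 genes; filled points have an adjusted p under 0.05. With IMC 34 of 36 points lie below 0, and Pex11a, Cpt1a, Eci2, Acaa1a and Ppara are filled in both colours.

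By compartment, IMC under ethanol lowered 6 of the 19 mitochondrial members (11.1% of all genes), with 19 of 19 below 0 and a median of -0.29 on the log2 scale. In pair-fed mice IMC lowered 2 of the 19 (5.16% of all genes), with 12 below 0 and a median of -0.08. Averaged over both diets, which balances low and high library numbers, IMC lowered 8 of the 19 (14.03% of all genes), with a median of -0.19. It raised 2 and lowered 2 of the 10 peroxisomal members there (14.1% and 14.03% of all genes), with a median of -0.16. Among the 10 peroxisomal members IMC raised 1 and lowered 2 in each diet, with medians of -0.01 and -0.22 (all genes 4.32% higher and 5.16% lower in pair-fed mice, 10.4% and 11.1% under ethanol). Ethanol in control mice lowered 5 of the 10 peroxisomal members and raised 1 (median -0.28), and lowered 1 of the 19 mitochondrial members (median -0.08), against 6.33% of all genes higher and 5.52% lower. On the deposited values this became 1 peroxisomal member higher and 1 lower, and 4 mitochondrial members higher (Acads, Cpt2, Etfdh and Hadha) and 1 lower, against 22.3% of all genes higher and 1.59% lower. In IMC-treated mice ethanol lowered 5 of 10 peroxisomal (median -0.49) and 5 of 19 mitochondrial members (median -0.29), against 8.61% of all genes, and on the deposited values 3 and 2, against 3.52% of all genes. Whether the compartments differ was not tested.

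**Figure D5:**
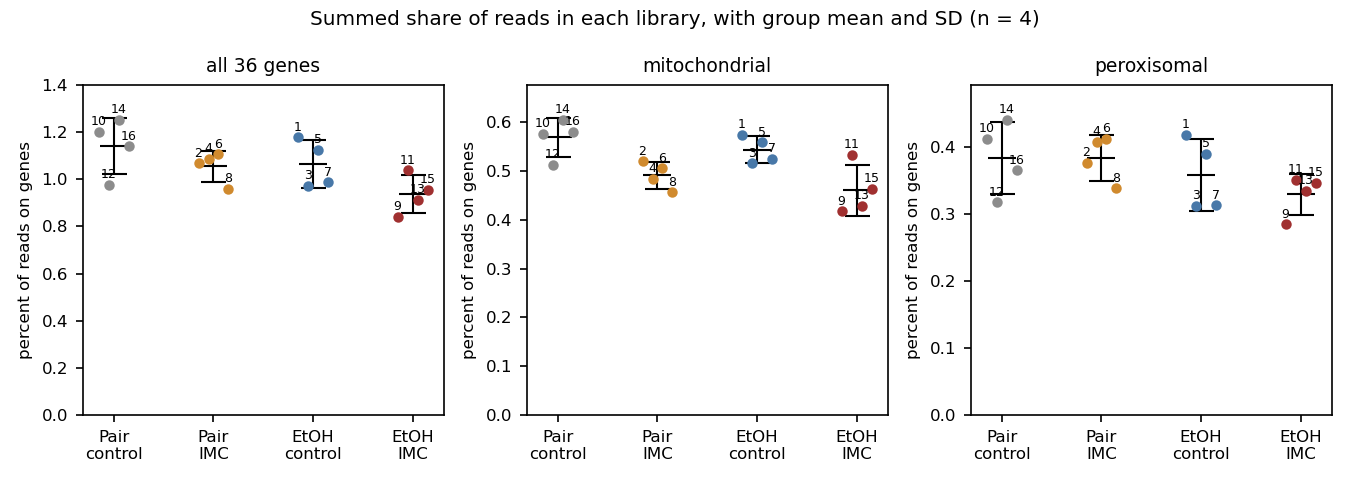
Share of all reads on genes taken by the 36 genes, by the 19 mitochondrial and by the 10 peroxisomal members in each library (points with library numbers, bars for mean and SD, n = 4). The 36 genes took 0.977% to 1.25% of reads in Pair control and 0.841% to 1.04% in EtOH IMC, and the groups overlap in each panel.

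Summed over the 36 genes, the share of reads was 1.14% ± 0.119 in Pair control mice, 1.05% ± 0.0654 in Pair IMC mice, 1.07% ± 0.101 in EtOH control mice and 0.937% ± 0.0824 in EtOH IMC mice (SD, n = 4). The mitochondrial members took 0.569% ± 0.0391, 0.492% ± 0.0278, 0.543% ± 0.0275 and 0.461% ± 0.0521 in the same order. Summed on the common scale, the mitochondrial members reached 56895 to 68358, 55206 to 61403, 58476 to 63028 and 42385 to 56912 in that order. On that scale EtOH IMC lay below EtOH control without overlap, and it overlapped both pair-fed groups. Either sum is weighted to a few abundant genes and was not tested. Per kb of exon the levels over all 16 libraries ran from 5708 for Acaa2, 3803 for Acaa1b, 2437 for Etfb and 2134 for Etfa down to 74.7 for Acot1, 62.6 for Pdk4 and 51.4 for Acot2. Ppara itself stood 31st of the 36, at 321 per kb.

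Other genes were read from lists that hold no member. Of a broad list around fatty acid oxidation and ketogenesis, 55 further genes were tested. Ivd, Aacs and Oxct1 are on it without being a step of either. IMC under ethanol lowered 24 of the 55 and raised 0 (median -0.25), against 11.1% of all genes lower and 10.4% higher. By limma 2 were higher at an unadjusted p under 0.05, and edgeR and DESeq2 called 0 higher. The falls were led by Ivd, isovaleryl-CoA dehydrogenase, at -0.89 ± 0.13 (limma adjusted p = 0.000146), and Aacs, acetoacetyl-CoA synthetase, at -0.93 ± 0.31 (limma adjusted p = 0.0394). In pair-fed mice IMC lowered 9 (5.16% of all genes) and raised 1 (4.32%), the muscle-type Cpt1b at 0.80 ± 0.21 (limma adjusted p = 0.0229), while Oxct1 changed by -0.69 ± 0.19 (limma adjusted p = 0.0267) and Acsl3 by -0.65 ± 0.18 (limma adjusted p = 0.0327). The groups overlapped for Cpt1b. Averaged over both diets IMC raised 2 and lowered 21 of the 55, against 14.1% of all genes higher and 14.03% lower. In IMC-treated mice ethanol raised 4 and lowered 16 of the 55, against 7.88% of all genes higher and 8.61% lower. Ethanol in control mice raised 6 and lowered 2, against 6.33% higher and 5.52% lower. Among them were Acot6 at 1.24 ± 0.30 (limma adjusted p = 0.0143) and Acox2, a peroxisomal branched-chain oxidase, at 0.62 ± 0.11 (limma adjusted p = 0.00251). Abcd2 stood at -0.41 ± 0.13 (limma adjusted p = 0.0495), with overlapping groups, and Mlycd, malonyl-CoA decarboxylase, at -0.32 ± 0.08 (limma adjusted p = 0.0149).

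Of 34 other PPARα targets and partners tested, IMC raised 7 and lowered 0 in pair-fed mice, against 4.32% of all genes higher and 5.16% lower (limma gave 2 lower at an unadjusted p under 0.05, and edgeR and DESeq2 called 0 lower). Under ethanol IMC raised 3 and lowered 4, which is near the 10.4% and 11.1% of all genes. Averaged over both diets IMC raised 12 and lowered 5 of the 34, against 14.1% of all genes higher and 14.03% lower. Cyp4a31, a fatty acid omega-hydroxylase, rose by 1.85 ± 0.35 in pair-fed mice (limma adjusted p = 0.00382) and by 1.11 ± 0.35 under ethanol (limma adjusted p = 0.0314). Fgf21, a fasting hormone of the liver, rose by 1.85 ± 0.46 (limma adjusted p = 0.0185) and 1.70 ± 0.46 (limma adjusted p = 0.0143) in the same order. Its groups overlapped in both diets, at low means of 161 with IMC against 43.9 in pair-fed mice and 50.7 against 15.3 under ethanol. Cyp8b1, a bile acid 12α-hydroxylase, fell by 2.92 ± 0.35 with IMC under ethanol (limma adjusted p = 3.59e-05), and G0s2, an inhibitor of fat breakdown, fell by 1.36 ± 0.41 (limma adjusted p = 0.0238). With IMC, ethanol lowered 10 of the 34 (8.61% of all genes). Ethanol in control mice raised 2 and lowered 4 (6.33% and 5.52% of all genes). Among them were Retsat at 0.63 ± 0.19 (limma adjusted p = 0.0412) and Ppard at 0.88 ± 0.27 (limma adjusted p = 0.0395). Fgf21 stood at -1.51 ± 0.46 (limma adjusted p = 0.0397) and Cidec at -0.85 ± 0.25 (limma adjusted p = 0.0383). The groups overlapped for Ppard and Fgf21.

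Of 19 peroxisome biogenesis genes, IMC lowered 1 in pair-fed mice, Pxmp2 at -0.46 ± 0.13 (limma adjusted p = 0.0298), and 2 under ethanol, Pxmp2 at -0.85 ± 0.13 (limma adjusted p = 0.000254) and Pex11g at -0.41 ± 0.10 (limma adjusted p = 0.0093), near the 5.16% and 11.1% of all genes lower in these comparisons. Of the 19, ethanol in IMC-treated mice lowered 5 (8.61% of all genes), and in control mice 3 (5.52%), among them Pex6 at -0.38 ± 0.09 (limma adjusted p = 0.0162) and Pex13 at -0.27 ± 0.08 (limma adjusted p = 0.0366). Of 27 genes of the mitochondrial matrix and citric acid cycle, IMC under ethanol lowered 10 (11.1% of all genes), led by Suclg2 at -0.53 ± 0.08 (limma adjusted p = 0.000426) and the chaperone Hspd1 at -0.52 ± 0.08 (limma adjusted p = 0.00041). In pair-fed mice IMC raised and lowered 1 each, near the 4.32% and 5.16% of all genes. These were Pdha1 at 0.31 ± 0.09 (limma adjusted p = 0.0374) and Sdhb at -0.31 ± 0.09 (limma adjusted p = 0.041). The groups overlapped for Sdhb. Averaged over both diets IMC lowered 9 of the 27 matrix genes and 3 of the 19 biogenesis genes, against 14.03% of all genes. Under IMC, ethanol lowered 7 of the 27 (8.61% of all genes). Ethanol in control mice raised 2 (6.33% of all genes), Dlst at 0.33 ± 0.07 (limma adjusted p = 0.00458) and Ogdh at 0.29 ± 0.08 (limma adjusted p = 0.0292), and lowered 2 (5.52%), Dlat at -0.55 ± 0.13 (limma adjusted p = 0.0134) and Tfam at -0.27 ± 0.08 (limma adjusted p = 0.0324). The ethanol counts of these lists rest on the common scale. On the deposited values ethanol in control mice raised 19 of the 55 genes of the broad list and 5 of the 34 PPARα genes. It raised 4 of the 19 biogenesis genes and 10 of the 27 matrix genes, against 22.3% of all genes. It lowered 1 gene in all, of the PPARα list. With IMC it raised 11, 2, 3 and 4 of them in the same order. It lowered 6 genes of the broad list, 5 PPARα and 3 matrix genes, against 25.4% of all genes higher and 3.52% lower.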

How the data were processed

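The authors trimmed reads with Trim Galore, aligned them with STAR to mm10 with UCSC transcripts, and deposited 1 normalized signal value per gene and mouse, which is the read count of the gene divided by 1 size factor per library. The counter is not given in the sources used here. Value columns were matched to samples by the library name in the labels, and rows with the same Ensembl ID were merged (27212 rows, 24082 genes).

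All libraries were rescaled by the median ratio of each library over 13121 genes (factors 0.934 to 1.07), genes reaching a deposited value of 10 in 4 or more libraries were kept (12535), and log2(value + 1) was fitted with limma 3.58.1 in R 4.3.3, with 1 mean per group over 16 libraries and a mean-variance trend. Fold changes are on that log2 scale, which understates changes of low genes, and errors beside them are SE. Tests were two-sided, with Benjamini-Hochberg adjusted p-values over all genes tested. Whole reads were recovered from the deposited values with a tolerance of 0.01 and tested with edgeR 4.0.16 and DESeq2 1.42.0 as alternatives. Levels per kb divide by merged GENCODE vM21 exon length. The scripts were tested on simulated data. Replicates differed by more than counting error in each of 24 pairs (chi-square per gene 5.60 to 44.0), and depth sets the counting error only.

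Members, compartments and lists were chosen with earlier results of these data known. Values in every mouse are given for Ppara and each member called in any comparison, here ordered by role, and other lists are given by counts and by the 2 largest rises and falls among called genes for IMC in each diet and for ethanol in control mice.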

Additional observations from a re-analysis of the deposited data

Results flagged for a closer look

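Acot12 in library 6 of Pair IMC stood apart from the other 3 mice of its group. Its level was 2334 against 2015 to 2028, a gap of 0.958 of the group's whole range. Acsl1 in library 13 of EtOH IMC, at 7869 against 6792 to 6893, had a gap of 0.907 of the range. These were 2 of 144 groups of 4 values examined, fewer than chance alone is expected to flag. The IMC effect on Etfdh differed between ethanol-fed and pair-fed mice by -0.65 on the log2 scale, tested as an interaction (limma adjusted p = 0.0133). Mice with low and high library numbers cannot be told apart from this difference.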

How the results depend on the processing

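No called member changed direction under any alternative. Members called for IMC in pair-fed mice numbered 6, against 3 with only the libraries of the comparison and 2 without the mean-variance trend. For ethanol in control mice they numbered 8, against 5 without that trend. Leaving out libraries 11 and 12, an alternative chosen after seeing the data, gave 16 in place of 10 for IMC in ethanol-fed mice and 20 in place of 13 for ethanol in IMC-treated mice. When single libraries were omitted, the counts ranged from 0 to 9 for IMC in pair-fed mice, 8 to 16 for IMC in ethanol-fed mice, 1 to 1 for the difference between diets, 11 to 18 for the average, 3 to 10 for ethanol in control mice and 9 to 18 for ethanol in IMC-treated mice. Of 51 calls, 29 held in each of these fits, none of them among the 6 for IMC in pair-fed mice. The deposited scale kept 39 of the 51, and edgeR and DESeq2 on all libraries kept all 51. Without library 15, whose whole reads are least securely recovered, edgeR kept 45 and DESeq2 51, a check also chosen after seeing the data. The causes were not tested. No paired analysis was possible because the groups share no replicate numbers. With 4 mice a group, a change that was not called may be too small to detect.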
